A study of Rattus norvegicus with 3 samples.

Results

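The genes described here are 37 endothelial cell genes, chosen by name as markers and regulators of the cells that line blood and lymph vessels. Of these, 33 had at least 1 row in the deposited expression table, among 16947 distinct gene symbols in all. Cd34 and Robo4 each stood on 2 rows, so the 33 genes filled 35 rows. Mmrn2, Ecscr, Ptprb and She had no row under those symbols and are not described further. Where a gene had 2 rows, counts and medians over genes used the mean of its rows.

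Endothelial cells are set apart from heart muscle cells by a small group of receptors, junction proteins and transcription factors. Vascular endothelial growth factors (VEGFs) act through the receptor kinases Kdr, Flt1 and Flt4, angiopoietins act through Tek with Tie1 as its partner, and the co-receptor Eng serves ligands of the BMP and TGF-beta family. Cadherin 5 and Pecam1 hold neighbouring cells together, and ETS factors such as Erg and Fli1, with Sox7, Sox17 and Sox18, maintain the expression of these genes. Glucocorticoids act on such cells through the glucocorticoid receptor (GR), a ligand-activated transcription factor.

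RNA sequencing had been done on ventricular myocytes of neonatal rats, taken from Sprague Dawley pups at 1 day of age and enriched by Percoll gradient and preplating, steps that remove other cells. The cells were grown in medium with serum and moved to serum-free medium after the first day. The 3 groups were ethanol control, 100 nM dexamethasone (Dex, a synthetic glucocorticoid) for 1 h, and 100 nM Dex for 24 h. Each was 1 sample, whose title speaks of 2 libraries, with 1 value per gene and group, and the same control served both times, with no treatment time given for it. Effects of Dex and of time in culture therefore cannot be told apart at 24 h.

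Levels are in FPKM, fragments scaled to transcript length and to all mapped fragments, so they can be compared between genes as well as groups. The depth is unknown, and the FPKM values summed to 652814 in control, 643628 at 1 h and 658159 at 24 h. Without replicate values no test was run between groups. The verbs rose and fell, and the word called, are kept for genes with the significance mark of the authors' deposited table (q-value of at most 0.05), which compares these libraries. Whether the 2 libraries of a group entered the authors' test separately or pooled is not stated in the labels or headers, so the spread behind each q-value and SE may be technical. Folds are log2 ratios of the FPKM values, and the error beside each is the standard error (SE) implied by the authors' test statistic. The deposited p-values do not follow from that statistic under a normal curve. For Flt4 at 24 h the SE implied by its p-value was 0.23, against 0.33 from the statistic. For Kdr at 24 h, whose p-value was the smallest deposited, it was 0.455 against 0.35. The q-values and calls therefore cannot be read off the SEs shown. Fewer cells of a type and less RNA per cell cannot be told apart in these bulk samples.

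The cultures carried the RNA their label names. The 14 cardiomyocyte markers with a row summed to 32860 FPKM in control, with the cardiac troponin Tnnt2 at 2286 FPKM. In control the 14 fibroblast markers summed to 7812 FPKM and the 13 smooth muscle and pericyte markers to 9735 FPKM. The listed endothelial genes had a lower sum. Such sums depend on which genes are listed, so they do not measure how much RNA came from a cell type. The 33 endothelial genes summed to 286 FPKM in control, 277 FPKM at 1 h and 403 FPKM at 24 h. Eng alone made up 37.5% of the control sum. Without Eng the sums were 179, 174 and 268 FPKM, and the ratio to control was 0.974 at 1 h and 1.502 at 24 h. GR itself, encoded by Nr3c1, had 19.7, 19.6 and 13.3 FPKM in the 3 groups and was not called at either time, on a row that shares its locus with others.

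After 24 h of Dex a share of the endothelial genes stood above control, and after 1 h none was called. Of 32 genes tested at 24 h, 9 rose, 1 fell and 22 were not called. Over all genes, 4.18% of those tested were called higher and 2.04% lower at that time, 6.22% in all. The genes that rose were Kdr, Flt4, Robo4, Esm1, Vwf, Pecam1, Emcn, Lyve1 and Erg, and the one that fell was Prox1. The median log2 ratio over the 33 genes was 0.48 at 24 h, with 29 of them above 0, while the median over all genes was −0.01 with 49.1% above 0. At 1 h none of 32 tested genes was called, against 0.863% of all genes tested, 0.622% higher and 0.242% lower. The median log2 ratio at 1 h was −0.03. Kdr, Sox7 and Prox1, 3 of 32 genes, had a p below 0.05 before adjustment in the authors' deposited table, as 2.76% of all genes did.

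**Figure D1:**
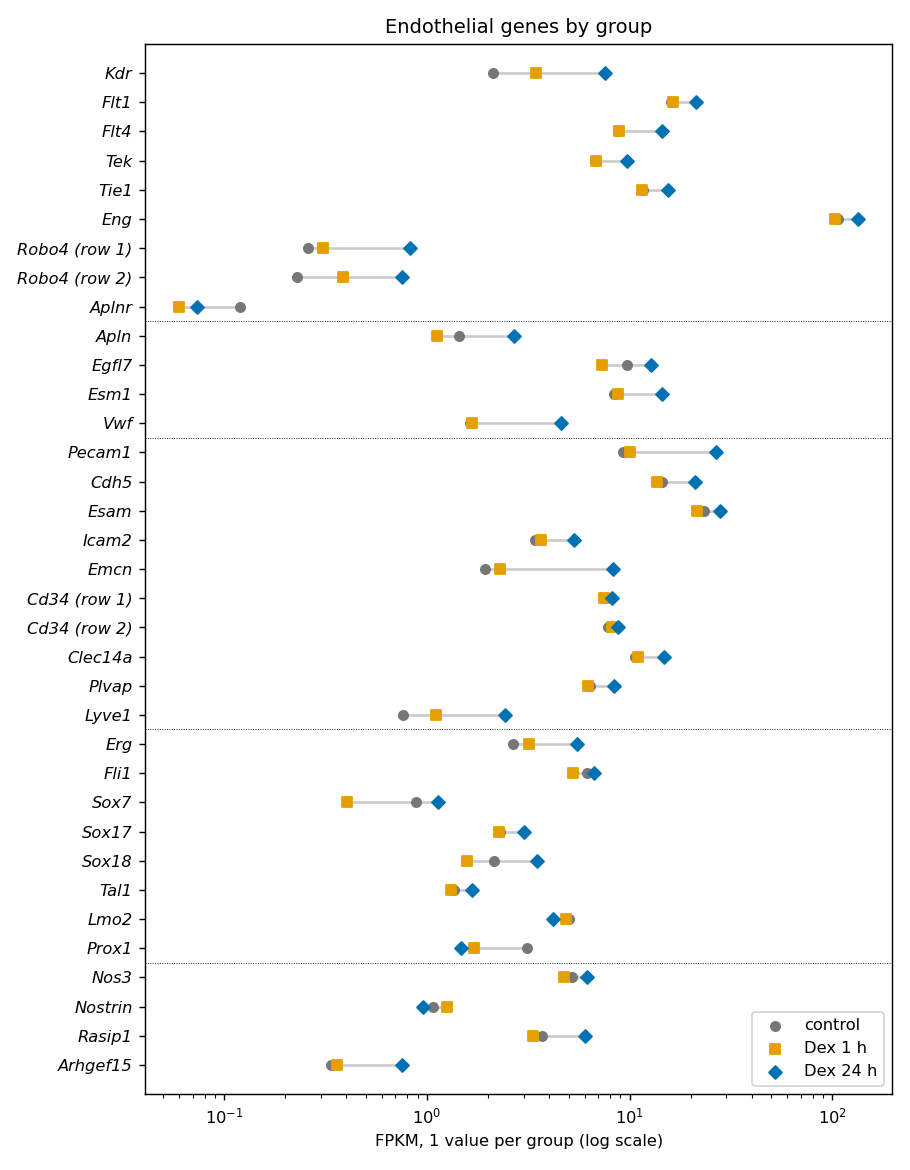
FPKM of each endothelial gene on a log axis, with 1 value per group and no replicate values: ethanol control (grey circles), Dex 1 h (orange squares) and Dex 24 h (blue diamonds). Dotted lines part receptors, secreted proteins, surface and junction proteins, transcription factors and intracellular signalling genes; the 24 h value lies to the right of control for 29 of 33 genes, and Prox1 lies to the left.

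Levels in control ran over a wide range. Eng was highest at 107 FPKM, followed by the junction protein Esam at 23.3 FPKM, Flt1 at 16.0 FPKM and Cdh5 at 14.4 FPKM. The median was 3.69 FPKM. Sox7, Lyve1, Arhgef15, Robo4 and Aplnr lay under 1 FPKM, and the last was not tested. The genes called higher at 24 h had 0.244 to 9.33 FPKM in control. Pecam1, the highest of them, ranked 8 among the 33 genes in control. Across the 32 tested genes, the rank correlation of mean FPKM with the 24 h log2 ratio was −0.164, and over all tested genes it was 0.0473. Both are descriptions across genes of the same libraries, in which genes of low FPKM scatter most.

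**Figure D2:**
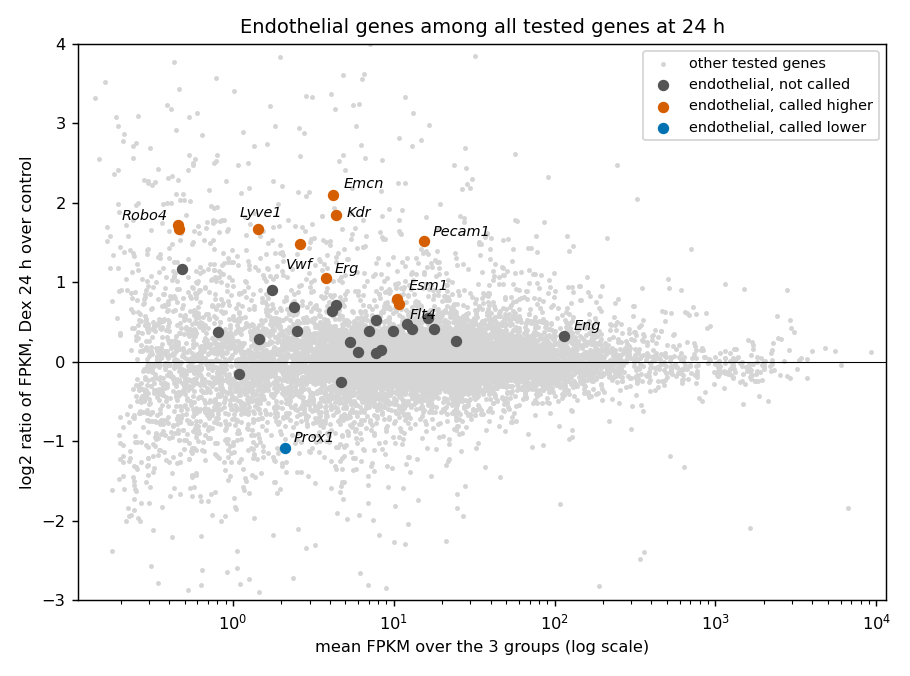
Log2 ratio of FPKM at 24 h over control against the mean FPKM of the 3 groups (log axis), with 1 point per tested row. Endothelial rows are orange where called higher, blue where called lower and dark grey where not called; 48 other rows lie outside the vertical axis. The endothelial rows called higher lie between log2 ratios of 0.72 and 2.10, and Eng, the most abundant, is at 0.33.

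Of the receptors, Kdr, Flt4 and Robo4 rose at 24 h and 4 other tested receptors were not called. Kdr, the main signalling receptor for VEGF-A (gene XLOC_005550, rn5 chr14:34557360-34618111), had 2.11 FPKM in control, 3.45 at 1 h and 7.59 at 24 h. The 24 h value was the highest and the 1 h value lay between the others. Its log2 ratio was 0.71 ± 0.36 at 1 h, where it was not called (q = 0.102 in the authors' deposited table), and 1.85 ± 0.35 at 24 h (q = 0.00238 in the authors' deposited table). Flt4, the receptor for VEGF-C and VEGF-D that marks lymphatic vessels (chr10:34850706-34892141), had 8.77, 8.89 and 14.5 FPKM in control, 1 h and 24 h. Its 24 h log2 ratio of 0.72 ± 0.33 was the smallest among the genes that rose, and in the authors' deposited table its q of 0.0499 lay just inside the threshold.

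Robo4, a roundabout receptor of endothelium, was low in each group. Its first row (chr8:39089745-39099696) had 0.259, 0.308 and 0.824 FPKM and its second row (chr8:39879853-39889804) had 0.229, 0.385 and 0.755 FPKM. Both rows rose at 24 h, by 1.67 ± 0.59 and 1.72 ± 0.62 on the log2 scale. The loci have the same span of 9951 bases on one chromosome, so its reads may have been split between alike copies, and both values are uncertain. A pseudocount of 1 on each FPKM value gave log2 ratios of 0.54 and 0.51. In the authors' deposited table q was 0.00939 and 0.0164 for the rows.

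Of the remaining receptors, 4 had higher values at 24 h without a call, and Aplnr a lower one. Flt1, a VEGF receptor with a soluble form, had 16.0, 16.4 and 21.3 FPKM, Tek had 6.74, 6.85 and 9.68 FPKM, and Tie1 had 11.7, 11.5 and 15.5 FPKM. Eng had 107, 103 and 135 FPKM. Their log2 ratios at 24 h lay between 0.33 for Eng and 0.52 for Tek, with an SE of 0.30 to 0.33, and none was called. Aplnr, the apelin receptor, had 0.119, 0.0600 and 0.0735 FPKM and was not tested. The 3 VEGF receptors thus stood at different sizes of change, from 0.41 ± 0.31 for Flt1 to 1.85 ± 0.35 for Kdr, a difference between genes that was not tested.

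Of the 4 secreted proteins, Vwf and Esm1 rose at 24 h. Vwf, von Willebrand factor, which tethers platelets to injured vessel walls (chr4:225098520-225229257), had 1.63 FPKM in control, 1.67 at 1 h and 4.57 at 24 h. Control and 1 h were close together and 24 h stood apart, with a log2 ratio of 1.49 ± 0.35 (q = 0.00238 in the authors' deposited table). Esm1, endocan, a proteoglycan of sprouting endothelium (chr2:64137198-64145937), had 8.39, 8.75 and 14.5 FPKM, a 24 h log2 ratio of 0.79 ± 0.35 (q = 0.0451 in the authors' deposited table). Apln, the ligand of Aplnr, had 1.44, 1.12 and 2.70 FPKM and lay just outside the threshold at 24 h, with a log2 ratio of 0.91 ± 0.43 and a q of 0.0558 in the authors' deposited table. Egfl7, a matrix-bound vessel protein, had 9.74, 7.28 and 12.7 FPKM and was not called against control, on a locus that it shares with rows of microRNAs.

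Among surface and junction proteins, Emcn, Pecam1 and Lyve1 rose and 6 of 9 were not called. Emcn, the sialomucin endomucin (chr2:261184359-261264295), had 1.94, 2.29 and 8.30 FPKM. Its log2 ratio at 24 h, 2.10 ± 0.44, was the highest of the 33 genes (q = 0.00238 in the authors' deposited table). Pecam1, an adhesion molecule at contacts between endothelial cells (chr10:94598950-94660385), had 9.33, 10.1 and 26.7 FPKM, and its 24 h level was the third highest after those of Eng and Esam. The log2 ratio of Pecam1 was 0.12 ± 0.35 at 1 h and 1.52 ± 0.34 at 24 h (q = 0.00238 in the authors' deposited table).

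Lyve1, a hyaluronan receptor of lymphatic endothelium that resident macrophages also carry (chr1:182650924-182664312), had 0.765, 1.10 and 2.43 FPKM. Control was lowest and 24 h highest, and the 24 h log2 ratio was 1.67 ± 0.46 (q = 0.00238 in the authors' deposited table), or 0.96 with a pseudocount of 1. Of the markers not called at 24 h, Cdh5, the cadherin of adherens junctions, had 14.4, 13.7 and 21.1 FPKM (log2 0.55 ± 0.33). Icam2 had 3.41, 3.66 and 5.32 FPKM, Clec14a, a C-type lectin of vessels, had 10.6, 11.03 and 14.8 FPKM, and Plvap, a protein of fenestral diaphragms, had 6.36, 6.22 and 8.35 FPKM. Esam had 23.3, 21.4 and 27.9 FPKM. The smallest ratios at 24 h in this group were those of Cd34, a sialomucin also found on progenitor cells, whose rows had log2 ratios of 0.11 ± 0.40 and 0.15 ± 0.39. The first row of Cd34 had 7.61, 7.52 and 8.23 FPKM and the second had 7.87, 8.23 and 8.76 FPKM, on loci with the same span of 19129 bases, so its split between copies is uncertain.

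Transcription factors went apart at 24 h, with Erg higher and Prox1 lower than control. Erg, an ETS factor needed for endothelial identity (chr11:39232473-39336438), had 2.67, 3.17 and 5.53 FPKM. Its log2 ratio at 24 h was 1.05 ± 0.41 (q = 0.0138 in the authors' deposited table). Fli1, the ETS factor most like Erg, had 6.14, 5.27 and 6.70 FPKM, with a log2 ratio of 0.13 ± 0.37, and was not called. Whether these ETS factors differ from each other was not tested.

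Prox1, the homeobox factor of lymphatic identity that heart muscle cells also express (chr13:113004596-113060843), had 3.12 FPKM in control, 1.70 at 1 h and 1.47 at 24 h. Both Dex values lay below control. The log2 ratio was −0.87 ± 0.40 at 1 h, just outside the threshold (q = 0.0558 in the authors' deposited table), and −1.08 ± 0.40 at 24 h (q = 0.00238 in the authors' deposited table). The 3 markers of lymphatic endothelium on the list thus went in different directions at 24 h, since Flt4 and Lyve1 rose while Prox1 fell.

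The SOX factors of vessels were not called against control. Sox7 had 0.881, 0.404 and 1.14 FPKM, lowest at 1 h with a log2 ratio of −1.13 ± 0.53 (q = 0.0705 in the authors' deposited table). Sox18 had 2.15, 1.58 and 3.48 FPKM and Sox17 had 2.30, 2.26 and 3.0 FPKM. Tal1, a basic helix-loop-helix factor of blood and endothelium, had 1.37, 1.31 and 1.67 FPKM, and its partner Lmo2 had 5.01, 4.85 and 4.19 FPKM. Lmo2 was 1 of 4 genes below control at 24 h, with Prox1, Nostrin and Aplnr.

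The intracellular signalling genes were not called against control at either time. Nos3, the endothelial nitric oxide synthase, had 5.195, 4.75 and 6.17 FPKM, and Nostrin, which binds it and directs its trafficking, had 1.07, 1.26 and 0.958 FPKM. Rasip1, needed for the formation of vessel lumens, had 3.69, 3.34 and 6.02 FPKM (24 h log2 ratio 0.71 ± 0.38). Arhgef15 had 0.337, 0.362 and 0.755 FPKM (24 h log2 ratio 1.17 ± 0.54, or 0.39 with 1 added). Before adjustment, 18 of the 32 tested genes had a p below 0.05 at 24 h in the authors' deposited table, Rasip1 and Arhgef15 among them, against 14.3% of all genes tested.

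**Figure D3:**
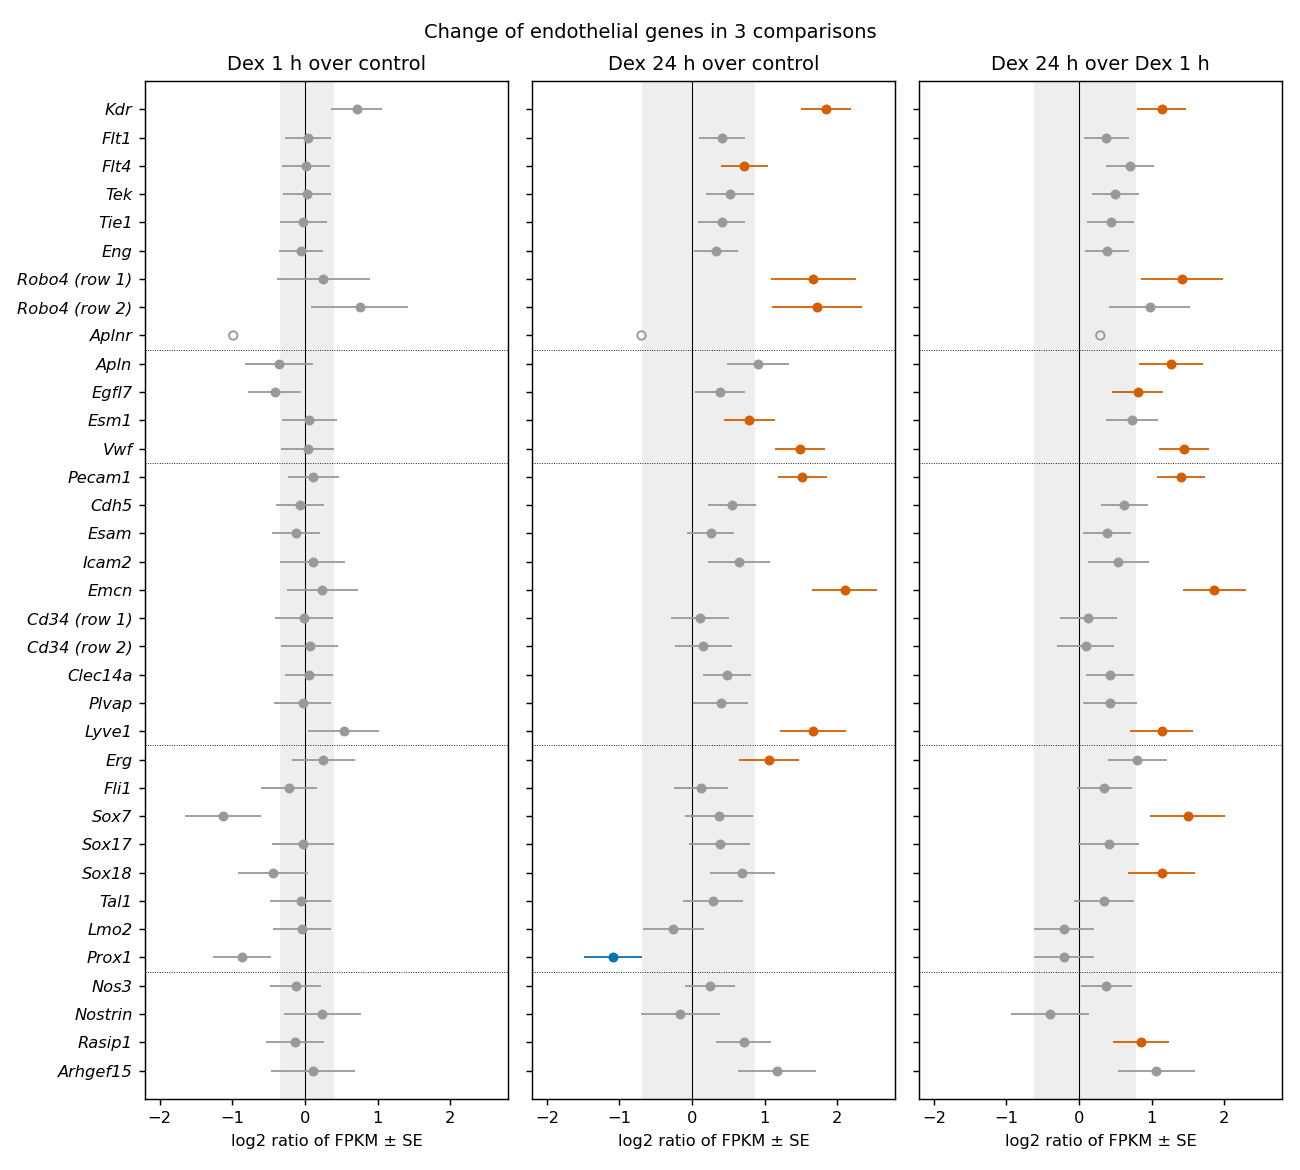
Log2 ratio of FPKM with its SE for each endothelial row in the 3 comparisons: Dex 1 h over control, Dex 24 h over control and Dex 24 h over Dex 1 h. Orange marks rows called higher, blue rows called lower, grey rows not called and an open circle the untested Aplnr; the grey band marks the central range of all tested rows. At 1 h none is coloured, at 24 h the coloured rows lie between −1.08 and 2.10.

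In the third deposited comparison, 24 h over 1 h of Dex, 11 of 32 tested endothelial genes were higher, none was lower and 21 were not called. Over all genes 3.31% were called higher and 1.61% lower, 4.92% in all. Before adjustment, 17 members and 12.4% of all genes had a p below 0.05 in the authors' deposited table. The comparison shares the 24 h sample with that against control, so the calls of both are not independent, and their values are given side by side. Kdr, Robo4, Vwf, Pecam1, Emcn and Lyve1 were called in both. Pecam1 had a log2 ratio of 1.40 ± 0.33 over 1 h and Emcn 1.86 ± 0.43. Robo4 was called on its first row. Under a stricter q-value of at most 0.01 in the authors' deposited table, 7 members were called at 24 h against 4.21% of all genes, 7 at 24 h over 1 h against 3.22%, and none at 1 h against 0.544%. With p-values adjusted within each comparison, the members called were 11 against 6.77%, 12 against 5.3% and none against 0.544%.

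The other 5 genes called over 1 h had 1 h values below control, none of them called. A call over 1 h without one against control favours genes with a low 1 h value, so this is largely built into the choice. Apln had a log2 ratio of −0.36 ± 0.46 at 1 h over control and 1.27 ± 0.44 at 24 h over 1 h. Sox7 had −1.13 ± 0.53 and 1.497 ± 0.52, and Sox18 had −0.44 ± 0.48 and 1.14 ± 0.46. For Egfl7 the ratios were −0.42 ± 0.36 and 0.80 ± 0.35, and for Rasip1 −0.14 ± 0.40 and 0.85 ± 0.38. The q of these 5 over 1 h in the authors' deposited table was 0.00238 for Apln, 0.00437 for Sox7, 0.0292 for Sox18, 0.0347 for Egfl7 and 0.0359 for Rasip1. Prox1, which had fallen by 24 h against control, differed little between the Dex times, with a log2 ratio of −0.21 ± 0.42.

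Among genes of vessel growth outside the 37, some ligands of the receptors above were called. Of 17 tested ligands and co-receptors of the VEGF, angiopoietin, semaphorin and BMP systems, 6 were called higher and 1 lower at 24 h, and the median log2 ratio was 0.22 with 10 not called. Figf, which encodes VEGF-D, a ligand of Flt4, rose from 5.27 to 25.0 FPKM (log2 2.25 ± 0.38). Angpt1, the activating ligand of Tek, rose from 1.39 to 6.12 FPKM (2.14 ± 0.44), and Bmp6 rose from 24.6 to 72.2 FPKM (1.56 ± 0.32). Angptl2, an angiopoietin-like secreted protein, fell from 48.5 to 19.4 FPKM (−1.32 ± 0.32). Vegfa, the main ligand of Kdr, had 107, 93.6 and 82.8 FPKM and was not called; it was singled out after its values were seen.

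Of 20 tested endothelial adhesion, junction and coagulation genes, 8 were called higher at 24 h and none lower, with 12 not called (median 0.43). Gja5, the arterial connexin 40 that atrial muscle also uses, rose from 22.8 to 69.9 FPKM (1.62 ± 0.32), and Thbd, thrombomodulin, from 2.20 to 6.11 FPKM (1.47 ± 0.37). Cldn5, the endothelial claudin, rose from 3.52 to 9.52 FPKM (1.44 ± 0.41), and Procr, the protein C receptor, from 9.70 to 20.8 FPKM (1.10 ± 0.36). At 1 h Gja1, connexin 43, fell from 127 to 71.6 FPKM (−0.82 ± 0.31), the call of 1 gene in 20.

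Of 10 vessel nitric oxide and endothelin genes, 4 were called higher at 24 h and none lower, with 6 not called (median 0.49). Among them were Ptgis, prostacyclin synthase, from 80.4 to 212 FPKM (1.40 ± 0.31), and Cav1, the coat protein of caveolae, from 187 to 313 FPKM (0.74 ± 0.31). The rises in Cav2 (0.82 ± 0.33) and in the peptidase gene Ace, from 1.35 to 41.6 FPKM (4.95 ± 0.38), were the other calls. A list of 20 further genes enriched in endothelium had 4 called higher and 16 not called (median 0.40). Gpr116, an adhesion receptor, rose from 2.43 to 11.1 FPKM (2.19 ± 0.34), Sparcl1 from 3.26 to 9.49 FPKM (1.54 ± 0.37), Cyyr1 by 1.99 ± 0.54 and Tspan8 by 1.04 ± 0.49.

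At 24 h 1 gene of each regulatory list below was called, 7.14% and 5.56% of those tested, near the 6.22% of all genes tested. At 1 h 1 gene of each was called as well, while 0.863% of all genes tested were. Of 14 tested Notch and BMP signalling genes, Smad7, an inhibitory Smad, rose at 24 h (0.71 ± 0.32) and the other 13 were not called (median −0.08), while Hes1 fell at 1 h (−1.16 ± 0.33). Of 18 flow-responsive and endothelial transcription factors, Klf2, induced by shear stress, rose at 24 h from 27.0 to 49.1 FPKM (0.86 ± 0.34) and the other 17 were not called (median 0.31). At 1 h Foxc2, a factor of lymphatic valves, fell from 11.5 to 6.13 FPKM (−0.90 ± 0.34). Heart muscle, fibroblasts and mural cells are known to express several genes of these lists too, Cav1 and Vegfa among them.

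**Figure D4:**
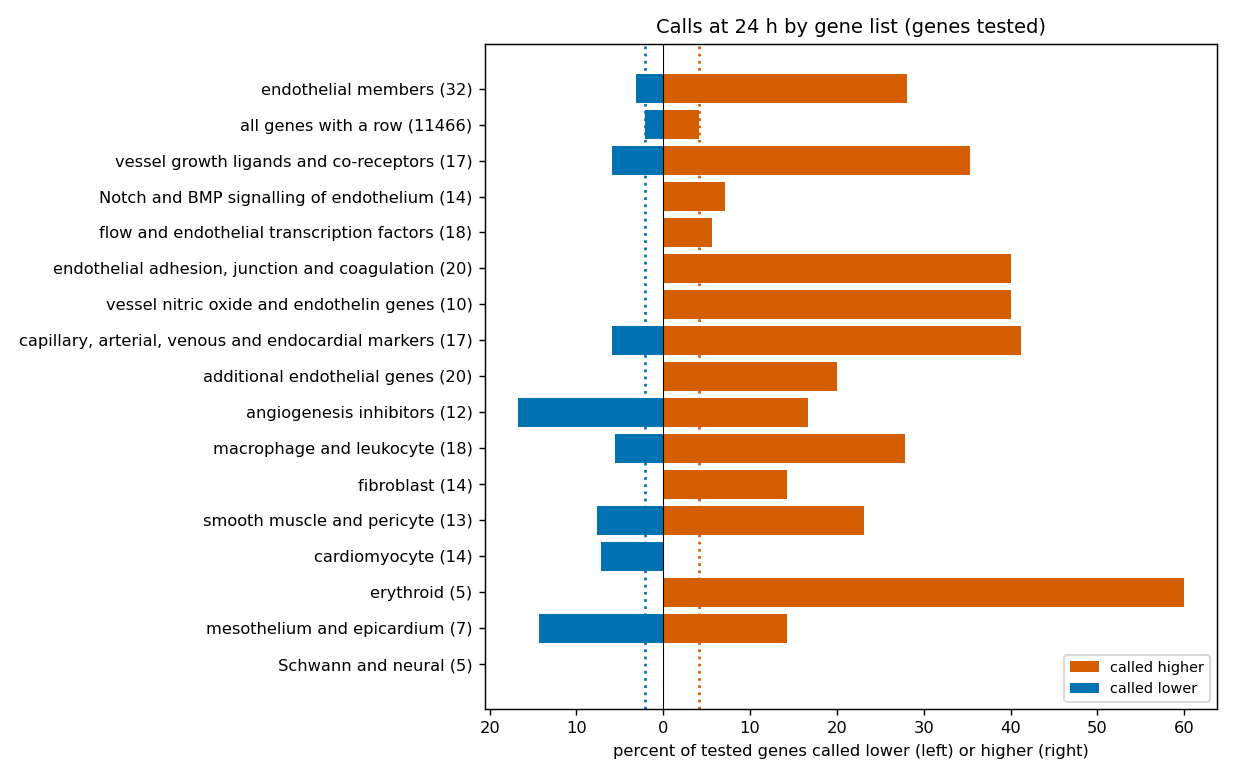
Percent of tested genes called higher (orange, right) or lower (blue, left) at 24 h over control in each list with at least 5 tested genes, with the number tested in brackets. Dotted lines give the shares over all genes with a row; the endothelial genes stand at 28.1% higher and 3.12% lower, and the cardiomyocyte markers at 0% higher and 7.14% lower.

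Markers of other cell types moved beside the endothelial genes at 24 h. Among 18 tested markers of macrophages and leukocytes 5 rose and 1 fell, leaving 12 not called (median −0.23), and the 19 with a row summed to 205, 213 and 298 FPKM. The scavenger receptor Cd163 rose from 0.0542 to 2.60 FPKM, C1qc from 2.89 to 29.3 FPKM (3.34 ± 0.44) and C1qb from 3.44 to 24.3 FPKM (2.82 ± 0.42). Mrc1, a receptor found on resident macrophages and on lymphatic and sinusoidal endothelium, rose from 3.66 to 16.3 FPKM on a row that shares its symbol or locus. By contrast Ptprc, the pan-leukocyte CD45, had 1.94, 2.46 and 1.21 FPKM, and Emr1, the antigen F4/80, fell from 1.26 to 0.351 FPKM. The part of these cells in the Lyve1 result was not tested.

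Counts for red cell, mural, fibroblast and heart muscle markers follow. Of 5 tested erythroid genes, 3 globins were called higher at 24 h and 2 genes were not called. The list summed to 91.0, 182 and 195 FPKM, and 3 of 4 tested were called higher at 1 h too, with Hba1 and Hba2 near-identical and so uncertain. Of 13 smooth muscle and pericyte genes, Des, Abcc9 and Lmod1 rose, Rgs5 fell and 9 were not called (median 0.18), with sums of 9735, 8582 and 11241 FPKM. Of 14 fibroblast genes, Mfap5 (1.34 ± 0.49) and Tcf21 (0.87 ± 0.32) rose and the other 12 were not called (median −0.11). Of 14 cardiomyocyte markers, Myl2 fell from 8776 to 2456 FPKM and 13 were not called (median 0.01). With Myl2 included, the 14 summed to 32860 FPKM in control and 27790 FPKM at 24 h. Whether a changed share of cell types had a part in the endothelial values was not tested.

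GR regions came from a sheet that pairs each region bound by GR in a separate ChIP experiment with nearby genes. The height of a region, its highest average tag value, and the log2 ratio of Dex over the ChIP control are the authors' values. Of the 33 endothelial genes 11 had at least 1 region, 33.3%, beside 34.1% of all genes with a row. All 11 were among the 32 tested at 24 h, and of all genes tested 46.3% had a region. Of the 9 that rose at 24 h 5 had a region, 55.6%, beside 56.4% of all genes called higher. Prox1, the gene that fell, had 1 as well, and of the 22 tested genes not called 5 had one, 22.7%, beside 46.2% of all genes tested and not called. The share among the genes that rose was near that of all such genes, and the share among those not called was lower, a difference that was not tested.

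The 21 regions of these genes lay mostly far from gene starts. In the sheet 13 were in the gene, 4 upstream and 4 downstream, and 13 lay over 10 kb from the start, while 37.5% of all rows did. Within 1 kb of the start were 2, against 37.2% of all rows. Their median height was 18.8, below the median of 20.9 over 8514 regions. Of the 21, 20 had a log2 ratio above 1, as did 95.5% of all regions.

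Erg held the highest region of the list. Its 3 regions lay inside the gene, at 22.7, 73.1 and 99.4 kb from the start, with heights of 29.5, 19.6 and 36.7, and the last (chr11:39236886-39237197) had a log2 ratio of 4.61 and exceeded 90.1% of all regions. Pecam1 had 4 regions. Of these, 3 stood together within 2330 bases in the part of the gene farthest from its start, 57.5, 58.4 and 59.4 kb away in a locus of 61435 bases, the tallest (chr10:94602586-94603123) at 33.2. The fourth lay 6.98 kb upstream with a height of 22.8. Flt4 had 1 region 6.94 kb into the gene with a height of 32.3 (chr10:34857400-34857903), and Kdr had 2, at 5.82 and 16.0 kb, with heights of 22.5 and 18.3. Emcn, Vwf, Esm1 and Robo4 rose with no region assigned to them.

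**Figure D5:**
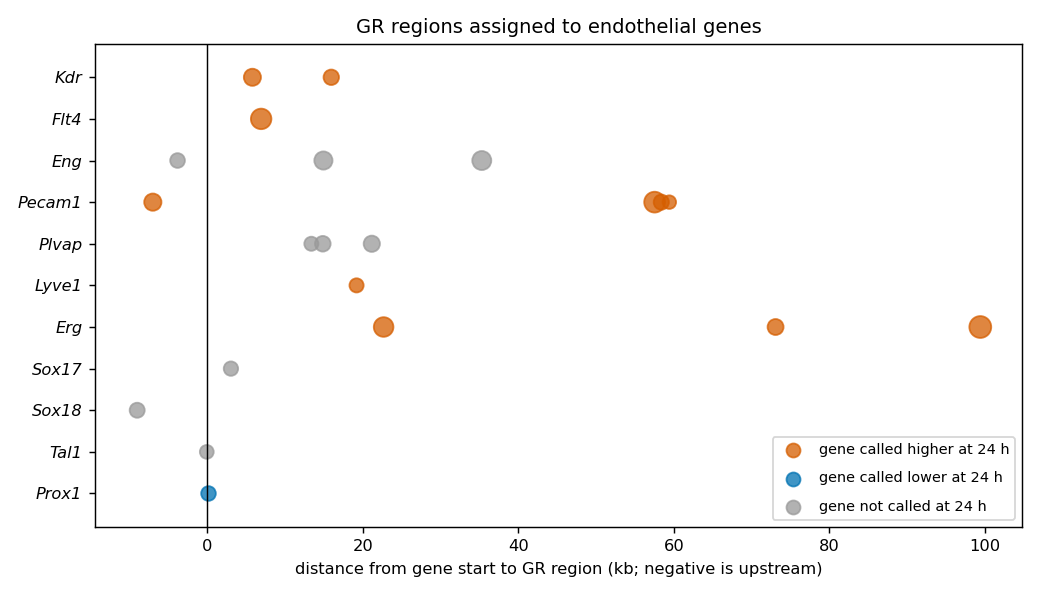
Distance in kb from the gene start to each GR region assigned to an endothelial gene, with 1 circle per region and an area in proportion to its height; negative distances are upstream. Orange genes were called higher at 24 h, blue lower, grey not called. Prox1 and Tal1 have a region next to the start, and the regions of Erg and Pecam1 reach 99.4 and 59.4 kb.

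Some regions are shared with a neighbouring gene. The region of Lyve1 lay 19.2 kb from its start, downstream, but 47 bases from that of rnf141, with a log2 ratio of 0.60, the lowest of the 21. The 3 regions of Plvap, the highest at 20.3, were also paired with Gtpbp3, that of Sox18 with Rgs19 and Tcea2, and 1 of the 3 of Eng with Fpgs. Eng, not called, had regions of 27.8, 25.4 and 16.7 in height. Sox17 had 1 of 15.9. The regions nearest to a start belonged to Prox1, 109 bases inside the gene (chr13:113004526-113004886, height 16.5), and to Tal1, 44 bases upstream in the sheet's annotation (chr5:137656284-137656503, height 14.7). The region of Tal1 ended 367 bases before the locus of its expression row, which starts elsewhere.

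Promoter sequences from RefSeq (GRCr8, 250 bases before to 50 after the start) were matched by symbol for 20 of the 37 genes, Prox1 not among them. Shown are Tal1, because a GR region lay at its start, and Emcn, Kdr and Robo4, the genes with the highest 24 h ratios among those matched. Capitals mark matches to an ETS motif, CNGGAAG on either strand, the kind of site that Erg and Fli1 bind. Builds differ between these windows and the GR regions, so the windows are not placed on the regions. The Emcn window is chr2:228564289-228564588, Kdr chr14:32571813-32572112, Robo4 chr8:45308489-45308788 and Tal1 chr5:133824214-133824513, all on the plus strand.
Tal1: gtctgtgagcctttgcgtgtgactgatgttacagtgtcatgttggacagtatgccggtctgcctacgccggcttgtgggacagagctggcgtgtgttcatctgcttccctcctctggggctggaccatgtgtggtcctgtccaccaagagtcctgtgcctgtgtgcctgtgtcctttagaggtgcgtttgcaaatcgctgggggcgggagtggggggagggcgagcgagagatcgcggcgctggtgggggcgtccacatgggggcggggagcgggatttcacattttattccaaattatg
Emcn: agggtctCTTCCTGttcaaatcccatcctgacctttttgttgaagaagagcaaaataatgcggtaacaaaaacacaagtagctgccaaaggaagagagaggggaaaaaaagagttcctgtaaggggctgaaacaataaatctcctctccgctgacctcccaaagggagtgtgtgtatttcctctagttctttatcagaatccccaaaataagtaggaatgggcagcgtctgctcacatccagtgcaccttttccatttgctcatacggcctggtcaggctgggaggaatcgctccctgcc
Kdr: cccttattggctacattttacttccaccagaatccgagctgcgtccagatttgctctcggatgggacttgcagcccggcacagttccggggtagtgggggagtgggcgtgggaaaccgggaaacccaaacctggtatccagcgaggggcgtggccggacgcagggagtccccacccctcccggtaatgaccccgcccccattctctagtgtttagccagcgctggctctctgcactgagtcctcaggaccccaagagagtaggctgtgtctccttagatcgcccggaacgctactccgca
Robo4: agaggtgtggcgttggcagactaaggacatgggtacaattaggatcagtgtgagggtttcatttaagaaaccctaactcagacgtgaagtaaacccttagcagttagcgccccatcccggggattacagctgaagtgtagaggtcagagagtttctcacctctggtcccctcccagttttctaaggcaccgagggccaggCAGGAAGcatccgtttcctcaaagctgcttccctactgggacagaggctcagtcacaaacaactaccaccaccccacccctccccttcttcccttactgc

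The ETS letters stood in 9 of the 20 windows, 45%, and in 31.2% of 27457 promoters of all genes. Those 9 were Apln, Egfl7, Emcn, Erg, Flt4, Lyve1, Plvap, Robo4 and Tie1. Counted from the start, the match began at −243 in Emcn and at −50 in Robo4. The GR palindrome, GNACA and TGTNC with 3 bases of any kind between them, was in none of the 20 windows on either strand and in 0.422% of all promoters. The FOX motif GTAAACA was in 1 of 20, that of She, and in 3.76% of all.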

How the data were processed

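Total RNA was sequenced, per the labels. The submitters' processing notes list TopHat, Cufflinks, Cuffdiff and build rn5; their settings are not given here. The file headers show that the deposited table holds 1 FPKM value per gene and group, and the deposited test statistic (a score), p-value and q-value for each of 3 pairs of groups. The authors' GR sheet gives a signal (height), a log2 ratio and a distance per region, and 99.5% of its rows placed in a gene overlapped that gene's rn5 locus. Values of 6 single ChIP samples in it were left aside.

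The design foresaw no replicate values, and no test was run. Log2 ratios were taken from the FPKM values with no filter and no pseudocount, and the SE is the log2 ratio divided by the authors' test statistic; medians are over genes with a ratio. The smallest deposited p-value is 5e-05. The deposited table marks 5 rows HIDATA, which were left out. The members and all gene lists were chosen with earlier results of these data known, so a list gets counts and medians beside those of all genes and no test. Every member with a row is named; of other lists, up to 4 called genes. The adjustment and ratio code was tested on simulated data. Python 3.11.15, pandas 2.3.3 and scipy 1.17.1 were used. Alternatives were a stricter q-value, a 1.5-fold minimum, other pseudocounts, a mean FPKM of at least 1, other scaling, adjustment within a comparison, rows with a shared locus or symbol left out, and GR regions by distance and ratio.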

Additional observations from a re-analysis of the deposited data

How the results depend on the processing

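No member was called at 1 h under any of the 5 alternatives run. Only adjustment within the comparison could have added a call, because the other alternatives can only remove calls. At 24 h the count of 10 was 7 at a q-value of at most 0.01, where Flt4, Esm1 and Erg were no longer called, and 11 with adjustment within the comparison, which added Apln. It was 9 with a mean FPKM of at least 1 and 9 without rows of shared locus or symbol. The share of all genes called under these filters was not computed, so these counts cannot be set beside it. For 24 h over 1 h the count of 11 went to 7 at a q-value of at most 0.01, without Robo4, Egfl7, Sox18 and Rasip1; the cause of each loss is the stricter threshold itself. The median log2 ratio at 24 h stayed between 0.39 and 0.48. That of 24 h over 1 h, 0.54, was 0.41 with 1 added to the FPKM values, which shrinks the ratios of low genes. Of 11 members with a GR region, 8 had one within 10 kb of the start, 2 within 1 kb, and 10 had one with a log2 ratio above 1. Of all genes with a row 18.9% had one within 1 kb, beside 6.06% of the members, and 95.5% of all regions had such a ratio. With 1 added, the log2 ratio of 6 of 34 member rows at 24 h moved by more than its SE. Adding the same number to both values cannot change the sign of a ratio, so the signs were not put to a check. No paired analysis was possible because the labels give 1 sample per group and no replicate numbers. Depth is unknown, so the precision of low genes such as Robo4, Arhgef15 and Lyve1 rests on the authors' test statistic alone.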

Other observations

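Markers of vessel types outside the 37 genes were also called. Of 17 tested capillary, arterial, venous and endocardial markers, 7 rose at 24 h, 1 fell and 9 were not called (median log2 ratio 0.55 over 18 genes). Gja5 among those that rose and Rgs5, the gene that fell, were already counted in lists above. Rgcc, a cell cycle regulator abundant in capillary endothelium, rose from 6.26 FPKM in control to 18.8 at 1 h (log2 1.59 ± 0.40) and 114 at 24 h (4.19 ± 0.38). Cytl1 rose from 0.666 to 6.77 FPKM (3.35 ± 0.56), the fatty acid carrier Fabp4 from 11.1 to 60.3 FPKM (2.44 ± 0.40), and the kinase Bmx from 0.227 to 0.924 FPKM (2.03 ± 0.59).

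Of 12 inhibitors of vessel growth, 2 rose, 2 fell and 8 were not called at 24 h (median 0.05). Timp3, a metalloproteinase inhibitor that also blocks binding of VEGF to Kdr, rose from 92.8 to 518 FPKM (2.48 ± 0.31) on a row that shares its symbol or locus. Adamts1 rose at both times, from 62.8 FPKM to 120.1 and 117, and Dusp5 fell at both, from 8.89 to 2.65 and 5.04 FPKM. Rgs4 fell by 1.22 ± 0.34 on the log2 scale at 24 h.

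Further cell types had few tested markers. Of 7 mesothelial and epicardial genes Krt19 rose (2.22 ± 0.52) and Krt18 fell (−2.25 ± 0.36) at 24 h, and 5 were not called. Over all genes tested, 6.22% were called at that time. None of 5 tested Schwann and neural genes was called in the authors' deposited table, with 1 at an unadjusted p under 0.05. Of the platelet genes, Pf4 alone was tested, at 32.2, 32.9 and 22.1 FPKM, and was not called, while Ppbp was listed at 0 in each group.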
